A study of Mus musculus with 10 samples.

Results

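The cyclin, CDK and E2F genes were taken as the protein-coding genes of the RefSeq mouse table whose symbols follow the cyclin (Ccn), cyclin-dependent kinase (Cdk) and E2F naming patterns. They numbered 51 of 21631 protein-coding genes on the autosomes and chromosome X, with 25 cyclins, 18 kinases and 8 E2F factors. The rule used names alone and no measured value, though the members were chosen with earlier results of these data known. Symbols with a further letter, such as Cdk11b, and the transcribed pseudogene Cdk3 fall outside it. A gene was called in a library where a deposited peak lay within 1000 bp of either end of the gene, here named a gene-end peak.

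The peaks come from ATAC-seq, an assay that reads out accessible DNA through the cuts of a transposase, on frozen liver tumours of FVB mice. All 10 libraries came from mice in which the LAP promoter, active in hepatocytes, drives a tetracycline-controlled activator that switches on a MYC transgene (TRE-MYC) once doxycycline is removed. All mice carried at least 1 floxed allele of Arid1a, the gene of a SWI/SNF chromatin remodelling subunit that binds DNA. The WT group (n = 4 libraries, about 55 days old) carried Arid1aflfl without Cre. The Het group (n = 3, about 70 days) carried Arid1afl/+ with Alb-cre, and the Homo group (n = 3, about 100 days) carried Arid1afl/fl with Alb-cre. Alb-cre acts in cells that use the albumin promoter, so other cells of the tumour keep the floxed allele. Age and the presence of Cre follow the genotype and cannot be told apart from it. The titles number the replicates without saying that each is a separate mouse, so a p-value reflects only how much these libraries vary, which may be technical. In whole tumour tissue, fewer cells of a type and less accessible DNA per cell cannot be told apart.

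Cyclins are regulatory subunits that rise and fall through the cell cycle and activate the CDKs they bind. Cyclin D with Cdk4 or Cdk6, then cyclin E with Cdk2, phosphorylate the retinoblastoma protein and its relatives, which releases E2F factors to switch on genes for DNA replication. Cyclin A and cyclin B with Cdk1 carry the cell into mitosis. Another branch of both families, such as Ccnt1 with Cdk9 or Ccnk with Cdk12 and Cdk13, acts mainly on RNA polymerase II. Adult hepatocytes are mostly quiescent and re-enter the cycle after liver loss or under oncogenes such as MYC.

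Promoters of 6 of these genes, whose calls are described later, are printed. Each runs from 250 bp before to 50 bp after the start listed by RefSeq on GRCm38.p6, with mm10 coordinates, 5′ to 3′ along the gene. Capitals mark, on either strand, the E2F core TTCGCGC or TTGGCGC, the cell cycle homology region TTTGAA, the CCAAT box and the E-box CACGTG bound by MYC. Ccng1 (chr11:40755237-40755536, minus strand) and Cdk13 (chr13:17805048-17805347, minus strand) had a gene-end peak in all 10 libraries. Ccno (chr13:112987552-112987851, plus strand) and Ccni (chr5:93206446-93206745, minus strand) had one in all 4 WT and in no Het library. Cdk1 (chr10:69352863-69353162, minus strand) and Cdk4 (chr10:127063285-127063584, plus strand), both chosen after their values were seen, hold the most E2F core and E-box matches among the members.
Ccng1: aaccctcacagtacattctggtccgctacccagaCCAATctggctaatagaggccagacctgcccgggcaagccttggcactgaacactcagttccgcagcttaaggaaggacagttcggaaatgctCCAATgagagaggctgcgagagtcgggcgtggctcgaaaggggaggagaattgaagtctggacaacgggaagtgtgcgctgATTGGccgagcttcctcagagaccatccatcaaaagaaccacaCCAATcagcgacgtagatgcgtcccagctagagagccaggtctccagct
Cdk13: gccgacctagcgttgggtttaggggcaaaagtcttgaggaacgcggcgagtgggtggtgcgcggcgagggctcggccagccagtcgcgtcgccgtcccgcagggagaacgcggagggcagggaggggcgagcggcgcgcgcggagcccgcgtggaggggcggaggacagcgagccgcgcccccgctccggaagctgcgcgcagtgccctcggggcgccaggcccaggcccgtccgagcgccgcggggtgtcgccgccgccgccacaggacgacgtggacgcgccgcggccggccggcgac
Ccno: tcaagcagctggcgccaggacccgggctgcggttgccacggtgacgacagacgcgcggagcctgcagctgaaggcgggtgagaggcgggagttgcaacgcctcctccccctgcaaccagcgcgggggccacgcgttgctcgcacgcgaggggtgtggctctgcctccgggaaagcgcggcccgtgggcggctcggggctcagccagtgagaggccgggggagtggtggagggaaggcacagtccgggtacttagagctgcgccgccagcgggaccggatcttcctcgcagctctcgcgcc
Ccni: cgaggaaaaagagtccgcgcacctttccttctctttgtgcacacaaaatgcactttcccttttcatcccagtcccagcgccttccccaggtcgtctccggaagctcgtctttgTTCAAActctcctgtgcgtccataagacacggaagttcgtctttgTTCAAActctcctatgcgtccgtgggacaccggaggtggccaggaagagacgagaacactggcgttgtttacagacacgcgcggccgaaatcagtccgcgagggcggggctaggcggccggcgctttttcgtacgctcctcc
Cdk1: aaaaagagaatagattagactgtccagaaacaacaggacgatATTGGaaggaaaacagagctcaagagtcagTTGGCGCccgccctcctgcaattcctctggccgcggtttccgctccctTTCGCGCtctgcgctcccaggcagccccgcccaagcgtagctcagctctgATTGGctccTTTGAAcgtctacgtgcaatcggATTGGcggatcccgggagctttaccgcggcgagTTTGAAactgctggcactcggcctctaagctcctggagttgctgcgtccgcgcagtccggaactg
Cdk4: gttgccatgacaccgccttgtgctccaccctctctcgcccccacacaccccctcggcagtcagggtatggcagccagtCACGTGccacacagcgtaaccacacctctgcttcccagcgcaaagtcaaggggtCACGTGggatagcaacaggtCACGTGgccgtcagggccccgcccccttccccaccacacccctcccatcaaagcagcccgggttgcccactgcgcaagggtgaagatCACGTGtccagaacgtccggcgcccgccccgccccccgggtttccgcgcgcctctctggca

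The Ccng1 window holds 4 CCAAT matches and no E2F core. The windows of Cdk13 and Ccno hold none of the marked motifs, so their letters stay in lower case. The Ccni window holds 2 TTTGAA matches. The Cdk1 window holds 2 E2F cores, of which one is part of the longer E2F site TTTCGCGC, together with 3 CCAAT and 2 TTTGAA matches. The Cdk4 window holds 4 CACGTG matches. A match describes these letters and is not a measured binding site.

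Depth and the number of regions differed between libraries. The lists held 1748 regions in Homo 2 to 9587 in Homo 3, and the background of tags expected per 200 bp, recovered from the deposited values, ran from 0.465 in Homo 2 to 1.74 in WT 1. The number of reads was not given in the sources used here. Homo 1 and Homo 2 stand apart from Homo 3, which had more regions than any WT library, so the 3 Homo libraries do not form one level. Arid1a had a peak inside the gene in WT 1 to WT 4, Het 1, Het 3 and Homo 3, and a gene-end peak in Homo 1 alone. The labels do not place these peaks in or out of the deleted part, so they check nothing about the deletion. Of 10 hepatocyte markers 6 had a gene-end peak in at least 1 library, with 1 to 5 per library in WT, 1 in each Het library and 0 to 5 in Homo. Cebpa, a hepatocyte transcription factor, was called in 9 of 10 libraries, while Alb, the serum albumin gene, was called in WT 2 and Homo 3 alone. None of the endothelial, stellate or lymphocyte and neutrophil markers was called in any library, and 1 each of the cholangiocyte (Epcam), macrophage (Spi1) and erythroid (Nfe2) markers was.

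Of the 51 genes, 41 had a gene-end peak in at least 1 of the 10 libraries, a share of 80.4%, where 42.6% of all protein-coding genes did. In all 4 WT libraries 28 members were called, or 54.9%, where 23.4% of all genes were. The number of members called was 37 in WT 1, 32 in WT 2, 30 in WT 3 and 37 in WT 4. It was 26 in Het 1, 19 in Het 2 and 9 in Het 3, then 14 in Homo 1, 6 in Homo 2 and 37 in Homo 3. All 3 Het libraries lay below the lowest WT library, whereas Homo 3 matched the highest. The share of all genes called in the same libraries was 35.8%, 32.8%, 28.0% and 33.9% in WT 1 to WT 4, 24.1%, 19.9% and 10.5% in Het 1 to Het 3, and 15.9%, 6.79% and 37.0% in Homo 1 to Homo 3. In every library the share among members was above that of all genes, by a ratio of 1.68 in Het 3 to 2.14 in WT 4.

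The mean number of members called in the 4 WT libraries was 34 ± 3.56 (SD, n = 4). For the 3 Het libraries it was 18 ± 8.54 (SD, n = 3) and for the 3 Homo libraries 19 ± 16.1 (SD, n = 3). Homo minus WT was -15 members, which is smaller than the Homo spread. It was -24 without Homo 3 and -8.5 without Homo 2, and 3 without both Homo 1 and Homo 2. Het minus WT was -16, and -11.5 without Het 3. With pileup and background scaled to the shallowest library, the means became 25.3 ± 2.22 in WT, 17.3 ± 7.64 in Het and 15.3 ± 10.7 in Homo. At that equal depth Het 1 had 24 members and Het 2 had 19, beside 23 to 28 in WT, while Het 3 kept 9. The difference Het minus WT was thus -7.92 at equal depth. The share of all genes called at equal depth was 21.1% to 27.3% in WT. It was 23.7%, 19.7% and 9.71% in Het 1 to Het 3 and 13.5%, 6.79% and 25.7% in Homo 1 to Homo 3. Among the 1748 strongest regions of each list the members called numbered 4 to 12 in WT, 6 to 9 in Het and 6 to 9 in Homo, and the groups overlapped. The share of all genes called was then 7.21% to 7.50% in WT, 6.93% to 7.37% in Het and 6.79% to 7.90% in Homo.

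**Figure D1:**
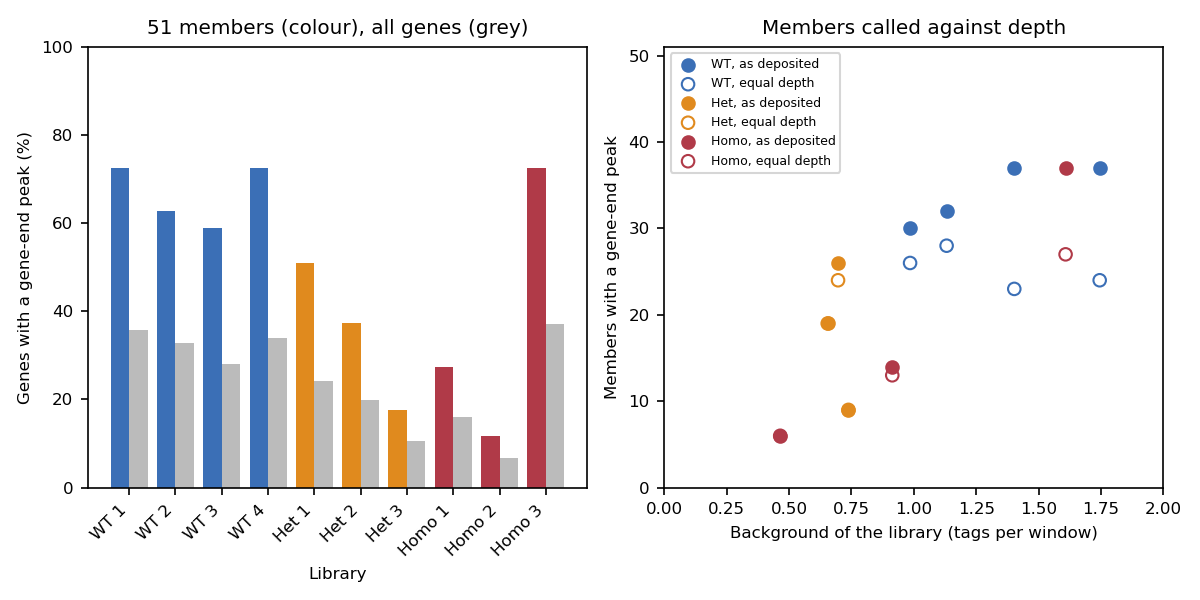
Left, share of the 51 members (coloured bars) and of all protein-coding genes (grey bars) with a gene-end peak in each library, in percent. Right, members called against library background in tags per 200 bp, for the deposited lists (filled) and at equal depth (open), 1 point per library. Members lie above all genes in every library, and Homo 3 sits with the WT libraries at 37 members.

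The number of libraries in which a member was called ran from 0 to 10. The members called in all 10 libraries were Ccna2, Ccng1 and Cdk13, 3 of 51, where 2.27% of all genes were. At equal depth Ccna2 and Cdk13 stayed at all 10, and Ccng1 lost WT 1. With the summit in the window Ccna2 was called in 3 of 4 WT libraries. With −log10 q of at least 5 Cdk13 was called in 2 of 3 Het libraries. Among the 1748 strongest regions of each list none of the 3 was called in all 10 libraries. Ccna2 (chromosome 3, 36564865 to 36573038) encodes cyclin A2, the cyclin of S phase and mitotic entry, and its WT 1 peak lay at 36571899 to 36572367. The deposited fold of its peak, the tag pileup at the summit plus 1 over the background plus 1, was 9.95, 7.77, 7.91 and 10.12 in WT 1 to WT 4. It was 9.71, 8.51 and 7.63 in Het 1 to Het 3 and 6.42, 7.23 and 8.76 in Homo 1 to Homo 3. Its rank percentile, the share of the library's own regions ranked below it by −log10 p, was 52.3 to 97.1 with a median of 85.1. The region also lies within 1000 bp of an end of Bbs7, so it cannot be assigned to Ccna2 alone.

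Ccng1 encodes cyclin G1, a target of p53 rather than a driver of the cycle. Its fold was 6.48, 8.80, 7.01 and 6.47 in WT, 7.92, 10.45 and 7.76 in Het and 7.42, 8.16 and 7.67 in Homo, in replicate order. Its median rank percentile was 81.5, and the WT 1 peak (chromosome 11, 40754992 to 40755517) covers nearly all of the printed promoter. Cdk13, a kinase of RNA polymerase II, had a fold of 7.11, 6.79, 4.98 and 6.86 in WT, 9.80, 6.87 and 5.0 in Het and 6.45, 5.93 and 7.21 in Homo. Its median rank percentile was 69.3. Folds are the authors' values per list and carry the depth of that list, so they describe each library and rank regions within it.

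The 10 members called in no library were Ccna1, Ccnb3, Ccnd1, Ccnd2, Ccnd3, Ccnl1, Ccnl2, Cdk6, Cdk14 and Cdk15. All 3 cyclin D genes and Cdk6, their partner kinase, are in this set, whereas Cdk4, the other partner, was called in 6 libraries. Ccna1 and Ccnb3 are known for roles in the germ line. The lack of a peak is no sign of closed chromatin in lists with so few regions. Of the 8 uncalled members with a listed start, 3 had a region at a start that lies inside the gene.

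Ccnl1, which encodes cyclin L1 of RNA splicing, had a region within 1000 bp of its listed start, over 3 kb inside the gene entry, in 4 of 4 WT, 2 of 3 Het and 3 of 3 Homo libraries. Its fold there was 8.04 in WT 1 and 8.61 in Homo 3. Ccnl2, the related cyclin L2 gene, had such a region in 4 of 4 WT, 2 of 3 Het and 1 of 3 Homo libraries. Ccnd3 encodes cyclin D3 and had a region at the later of its 2 listed starts, 47593467 on chromosome 17, in WT 1, WT 3, WT 4, Het 1 and Homo 3. It also had a region inside the gene about 6 kb after the first start in WT 1, WT 2, WT 4, Het 1 and Homo 3, with a fold of 8.44 in WT 2. Cdk6 had a region inside the gene, with its summit 110207 bp after the start in WT 1 and 110219 bp in WT 2, with folds of 9.15 and 7.89. Ccnd1, Ccnd2, Ccna1, Ccnb3, Cdk14 and Cdk15 had no region inside the gene or within 10 kb of it in any list.

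**Figure D2:**
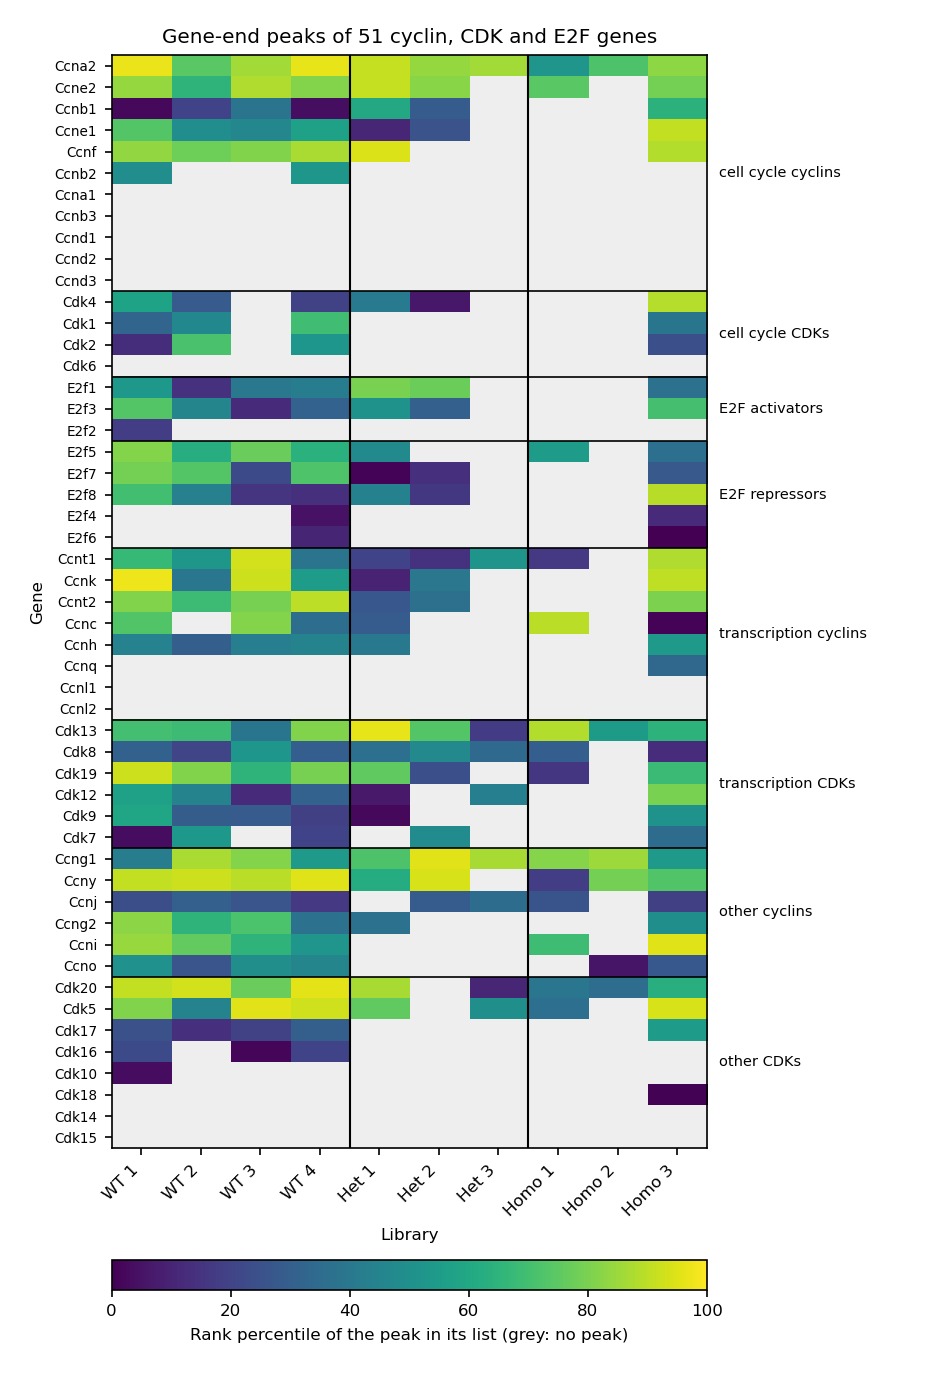
Gene-end peaks of the 51 members (rows, grouped by role) in the 10 libraries (columns), coloured by the rank percentile of the strongest peak within its own list, from 0 to 100, with grey for no peak. Ccna2, Ccng1 and Cdk13 are coloured across all 10 columns, and the columns of Het 3, Homo 1 and Homo 2 are mostly grey.

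Both cyclin E genes, which act at the G1 to S transition, were called. Ccne1 encodes cyclin E1 (chromosome 7, 38097984 to 38107490). Its fold was 6.58, 6.08, 5.88 and 6.10 in the WT libraries, 5.04 in Het 1, 5.65 in Het 2 and 8.97 in Homo 3, with no peak in Het 3, Homo 1 or Homo 2. Ccne2, the cyclin E2 gene, had 7.35, 6.31, 6.76 and 6.52 in WT, 8.33 in Het 1, 7.48 in Het 2, 6.64 in Homo 1 and 7.49 in Homo 3. The WT values of both genes lay close together, and Het 3 and Homo 2 lacked both. The summits at Ccne2 mostly lay just beyond 1000 bp from the gene's lower end, so with the summit itself in the window it was called in 1 of 4 WT and 0 of 6 other libraries.

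The mitotic cyclins differed in how often they were called. Ccnb1 encodes cyclin B1, the main partner of Cdk1, and had folds of 4.28, 5.67, 6.15 and 4.67 in WT, 7.35 in Het 1, 6.18 in Het 2 and 8.18 in Homo 3. In WT 1 its peak (chromosome 13, 100786502 to 100786824) had a −log10 p of 7.43 and a rank percentile of 2.0, so it stood near the weak end of that list. Ccnb2, the cyclin B2 gene, was called in WT 1 (fold 7.29) and WT 4 (7.14) and in no other library. Ccnf encodes cyclin F, a substrate receptor of the SCF ubiquitin ligase. It had folds of 8.20, 8.10, 7.75 and 8.77 in WT, 10.36 in Het 1 and 9.94 in Homo 3, with a median rank percentile of 85.6 over these 6 lists. The peak was missing from the other 4 lists, Het 2, Het 3, Homo 1 and Homo 2.

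Of the 4 kinases of the cell cycle proper, 3 were called, and WT 3 held none of them. Cdk1, the mitotic kinase, had folds of 5.87 in WT 1, 6.37 in WT 2, 7.57 in WT 4 and 6.65 in Homo 3. The WT 1 peak, at 69352806 to 69353093 on chromosome 10, covers most of the printed window with its 2 E2F cores and 2 TTTGAA matches, and its summit lay at -76 bp from the start. Cdk2, the S phase kinase, was called in the same 4 libraries, with folds of 5.48, 8.02, 6.65 and 5.79. Cdk4, the cyclin D kinase, had 5.81 in WT 1, 5.0 in WT 2, 4.67 in WT 4, 5.94 in Het 1, 5.05 in Het 2 and 8.27 in Homo 3. The Homo 3 peak of Cdk4 had a rank percentile of 88.8, against 19.9 to 58.1 in the 3 WT lists. A region past the far end of Cdk2, called in 4 of 4 WT, 3 of 3 Het and 1 of 3 Homo libraries, lay at the ends of Pmel and Rab5b and entered only with a window of 2500 bp.

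All 8 E2F genes were called somewhere, though in unequal numbers of libraries. Among the activators, E2f1 had folds of 6.22, 5.30, 6.02 and 5.93 in WT, 7.85 in Het 1, 7.26 in Het 2 and 5.88 in Homo 3. E2f3, another activator, had 6.40, 5.69, 4.47 and 4.96 in WT, 6.39 and 5.47 in Het 1 and Het 2, and 6.89 in Homo 3. E2f2 had a gene-end peak in WT 1 alone, with a fold of 5.25. Homo 3 had a region at the later of its 2 listed starts, 136180782 on chromosome 4, which lies inside the gene. A further region inside the gene was called in WT 1 (fold 7.72) and Homo 3 (8.22). Het 3, Homo 1 and Homo 2 held none of the 3 activators.

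The repressors E2f7 and E2f8, atypical E2Fs that bind DNA without a DP partner, were called in the same libraries as E2f1 and E2f3. E2f7 had folds of 8.49, 7.91, 5.80 and 7.88 in WT, 4.64 in Het 1, 5.50 in Het 2 and 5.85 in Homo 3. Its rank percentile was 79.0, 73.4, 22.3 and 72.5 in WT 1 to WT 4, 0.8 in Het 1, 13.7 in Het 2 and 27.9 in Homo 3. WT 3 lay below Homo 3, so the WT and Homo ranks overlapped, and the ranks come from lists of different lengths. Scaled to equal depth, E2f7 had 4 of 4 WT, 1 of 3 Het and 0 of 3 Homo calls. E2f8 had 6.49, 6.21, 5.0 and 4.97 in WT, 6.25 and 5.45 in Het 1 and Het 2, and 8.58 in Homo 3, and its summits lay inside the gene, 282 to 520 bp after the listed start. E2f5, a partner of the pocket proteins, had 8.59, 7.52, 7.60 and 7.55 in WT, 6.86 in Het 1, 6.77 in Homo 1 and 6.67 in Homo 3. E2f4, the main repressor of resting cells, was called in WT 4 (fold 4.79) and Homo 3 (5.56) only. The WT 4 peak lay at the higher end of the gene and the Homo 3 peak at the lower end. These separate regions also lie at the ends of Elmo3 and Exoc3l. E2f6, which acts with Polycomb proteins, was called in WT 4 (5.30) and Homo 3 (4.22) only.

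Of the 6 kinases of the transcription branch, Cdk7, Cdk8, Cdk9, Cdk12, Cdk13 and Cdk19, the number called was 6, 6, 5 and 6 in WT 1 to WT 4, 5, 4 and 3 in Het 1 to Het 3, and 3, 1 and 6 in Homo 1 to Homo 3. Cdk8, a kinase of the Mediator complex, missed only Homo 2, and Cdk9, the kinase of P-TEFb, missed Het 2, Het 3, Homo 1 and Homo 2. Of 8 transcription cyclins, 4 to 5 were called in each WT library, 5, 3 and 1 in Het and 2, 0 and 6 in Homo. Ccnt1, the cyclin T1 partner of Cdk9, was called in 9 libraries with a fold of 8.76 in WT 3 and 9.33 in Homo 3. Ccnk, the cyclin K partner of Cdk12 and Cdk13, had its highest WT rank percentile, 97.6, in WT 1, in a region that also lies at an end of Setd3. Ccnq was called in Homo 3 alone.

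Cdk8 also held the strongest region of any member, about 29.9 kb after its start and far from either end (chromosome 5, 146260906 to 146261442 in WT 1). It was called in all 10 libraries with a fold of 22.17 to 26.13, a rank percentile of 99.7 to 99.9 and a width of 537 to 542 bp. The highest fold of any gene-end peak of a member was 10.45. This internal region was not counted as a gene-end peak. A list of mm10 regions with artefact signal was not used here, so whether the region is one of them was not tested.

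Among the 28 members called in all 4 WT libraries, Homo 3 held 28, Het 1 24, Het 2 17, Homo 1 13, Het 3 9 and Homo 2 6. The same order held for all 5067 genes called in all 4 WT libraries, of which these 6 libraries held 98.7%, 79.9%, 68.4%, 52.1%, 37.4% and 24.0%. In all 3 Het libraries 5 of the 28 members were called, where 28.1% of the 5067 genes were, and in all 3 Homo libraries 5, where 17.2% were. For 3 of the 28 no Het library had the peak and for 5 a single one did, where the shares of the 5067 genes were 9.37% and 23.6%. These 8 were Ccnf, Ccng2, Ccnh, Ccni, Ccno, Cdk9, Cdk17 and E2f5. For 14 of the 28 a single Homo library had the peak, where this held for 41.3% of the 5067 genes, and for all 14 this was Homo 3. They were Ccnb1, Ccne1, Ccnf, Ccng2, Ccnh, Ccnk, Ccnt2, Cdk9, Cdk12, Cdk17, E2f1, E2f3, E2f7 and E2f8.

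Homo and WT tumours were compared to ask which gene ends lose or gain accessibility without Arid1a. No member was called in all 4 WT and no Homo library, where 0.306% of 9150 genes were, and no member had the reverse, where 0.0109% of genes did. Without Homo 3 the 14 members just named were called in WT only, among 2091 such genes in all. At equal depth, with Homo 3 kept, E2f7 was the only member called in all 4 WT and no Homo library, among 62 genes. Of the 14, Ccne1, Ccnf, Ccng2, Ccnk, Ccnt2 and E2f7 stayed at 4 of 4 WT libraries at equal depth. Ccnb1, Ccnh, Cdk9, Cdk12, Cdk17, E2f1, E2f3 and E2f8 did not. Ccnb1 then had 1 of 4 WT, 2 of 3 Het and 1 of 3 Homo calls. By Fisher's exact test, two-sided with Benjamini-Hochberg adjustment over all 9150 genes, 0 genes passed an adjusted p of 0.05, the smallest adjusted p being 0.582. At an unadjusted p under 0.05 there were 29 genes (0.317%) and 0 of the 41 members tested. With 4 against 3 libraries the exact test cannot go below p = 0.0286.

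Het and WT tumours were compared to ask what a single floxed allele exposed to Cre changes. Ccni, Ccno and Cdk17 were called in all 4 WT and in no Het library, 3 of the 39 members tested, where 5.34% of 8888 genes were. No member had the reverse, where 0.0113% of genes did. Each of the 3 was called again in Homo 3. Their exact Fisher p was 0.0286, the smallest possible, and 0.533 after adjustment. Over all genes 0 passed the adjusted threshold and 476 (5.36%) had an unadjusted p under 0.05. The share of members with this pattern is close to that of all genes.

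Ccni encodes cyclin I, an atypical cyclin that partners Cdk5 in post-mitotic cells, and its gene spans 93181933 to 93206495 on chromosome 5. Its fold was 8.33, 7.40, 6.64 and 6.36 in WT, 6.90 in Homo 1 and 9.82 in Homo 3, with no peak in Het 1, Het 2, Het 3 or Homo 2. The WT 1 peak, 93206415 to 93206967, covers the printed promoter and lies also at an end of 2010109A12Rik. Ccno, which encodes cyclin O, needed for the centriole amplification of multiciliated cells, had 6.88, 6.06, 6.93 and 7.08 in WT, 5.06 in Homo 2 and 6.52 in Homo 3. Its peak in WT 1 lay at 112987560 to 112987914 on chromosome 13, over nearly all of the printed window. At equal depth Ccni and Ccno both stayed at 4 of 4 WT, 0 of 3 Het and 2 of 3 Homo libraries. Cdk17 had 5.72, 5.47, 5.43 and 5.81 in WT and 7.35 in Homo 3. Scaled to equal depth, its calls shrank to 1 of 4 WT libraries and Homo 3. Among the 1748 strongest regions of each list no member had this pattern.

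The step from Het to Homo addresses what loss of the other allele adds. No member was called in all Homo and no Het library, where 0.352% of 8533 genes were, or in all Het and no Homo library, where 0.0352% were. Fisher's exact test gave 0 genes at an adjusted and 0 at an unadjusted p under 0.05, since 3 against 3 libraries cannot go below p = 0.1. Ccni and Ccno, at 0 of 3 Het and 2 of 3 Homo libraries, were the most unequal members (exact p = 0.4, adjusted 1). Leaving out Homo 1 gives Ccno the full pattern, and leaving out Homo 2 gives it to Ccni.

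WT was also set against all 6 libraries with Cre. No member was called in all WT and none of the 6, where 0.152% of 9218 genes were, and for the reverse both counts were 0. Fisher's exact test gave 0 genes at an adjusted p of 0.05, with a smallest adjusted p of 0.562, and 397 genes (4.31%) at an unadjusted p under 0.05. Of 41 members tested 2 had an unadjusted p under 0.05. Cdk16, a kinase active in neurons and testis, was called in WT 1, WT 3 and WT 4 and none of the 6 (exact p = 0.0333, adjusted 0.562). Its peaks were weak, with rank percentiles of 1.2 to 22.5, and none was left at equal depth. Cdk17, its close relative, was called in 4 of 4 WT and 1 of 6 (exact p = 0.0476, adjusted 0.562).

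Some members had a single call. Ccnq and Cdk18 were called in Homo 3 alone, and Cdk10 and E2f2 in WT 1 alone. E2f2 also had a region in Homo 3 at its later listed start, which is not a gene end. A greater share of Homo than WT libraries was found for Ccnq, Cdk18, E2f4 and E2f6, in each through 1 Homo library, Homo 3. For E2f4 the WT 4 and Homo 3 peaks lay at opposite ends of the gene. WT 1 and Homo 3 had the highest backgrounds, 1.74 and 1.61. At equal depth Ccnq kept its call in Homo 3, while Cdk10, Cdk18, E2f2, E2f4 and E2f6 were called in no library. The part of depth in the single calls was not tested further.

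The peaks of members with a listed start lay at gene starts. Called members without a listed start, such as Ccna2, Ccne2, Cdk17 and E2f4, could not be placed in this way. All 32 called members with a listed start had their peak at the end that holds the start, and 0 had one at the far end, where 7.11% of the 7548 called genes with a listed start did. Within 1000 bp of a listed start, 35 of 40 members had a region in at least 1 library, or 87.5%, where 45.4% of all genes with a listed start did. Over 184 strongest peaks per gene and library, 79.3% of summits were within 250 bp of a listed start and 78.3% lay before it, with a median position of -77 bp. Ccni had the tightest placement among the members called in 6 or more libraries, from -24 to 15 bp from the start. Cdk12, E2f1 and Cdk9 had median summit positions of -593, -552 and -494.5 bp from their listed starts. The Cdk12 entry begins at 98202433 on chromosome 11, before its listed start at 98203305, and its summits lay inside the entry. The E2f1 entry, on the minus strand of chromosome 2, ends at 154569892, beyond its listed start at 154569426. At Cdk13 the summit of the strongest peak lay at -126, -108, -99 and -28 bp in WT 1 to WT 4, at -96, -121 and -326 bp in Het 1 to Het 3 and at -386, -320 and -357 bp in Homo 1 to Homo 3. Cdk13 is given as the member whose positions were singled out after they were plotted, and its positions were not tested.

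**Figure D3:**
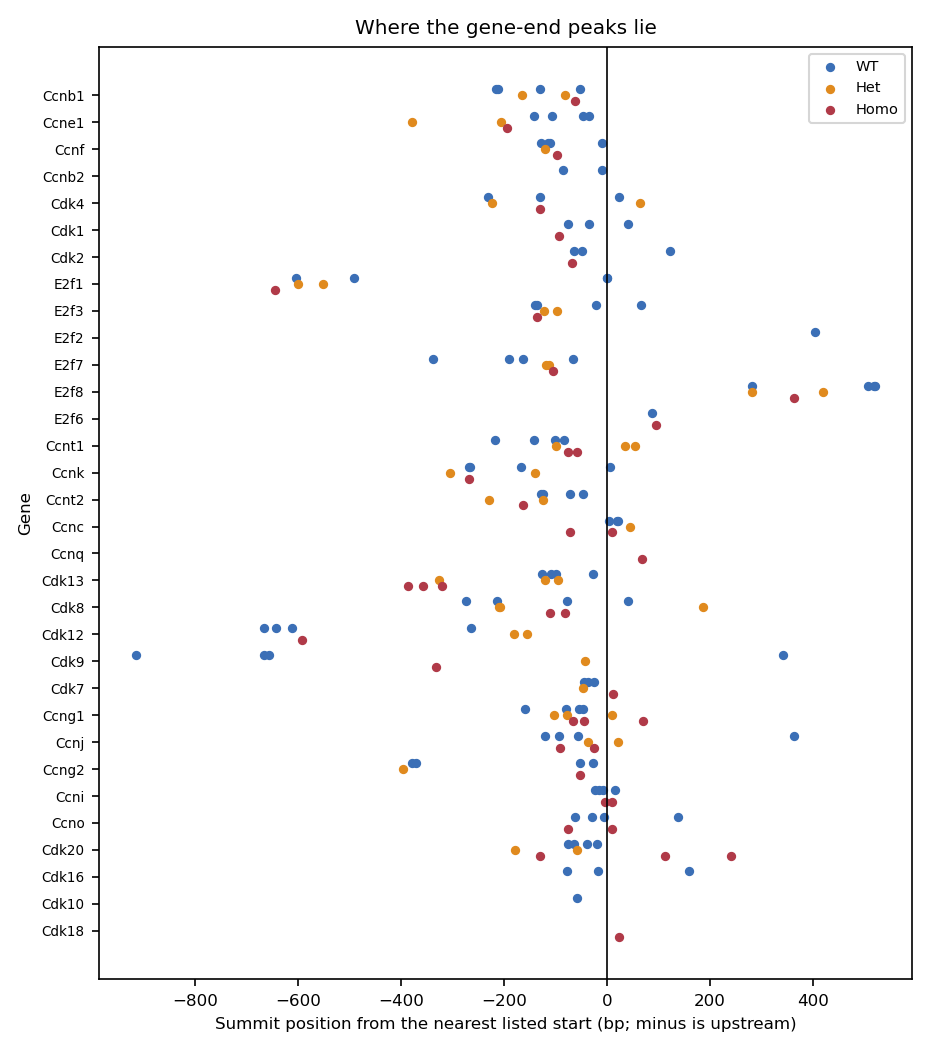
Position of the strongest peak summit relative to the nearest listed start, in bp with minus for upstream, for the 32 called members with a listed start (rows), 1 point per library and coloured by genotype. Most points lie within 250 bp of the start, mostly before it, and E2f1, Cdk12 and Cdk9 have points far upstream of it. The listed starts of Cdk12 and E2f1 lie inside their gene entries.

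RefSeq windows were found for 40 of the 51 members (44 windows) and for 17274 of all genes (21045 windows). The median GC content of the members' windows was 65.2%, against 56.7% over all windows, with a median of 26.5 CpG dinucleotides against 13. Matches were counted on both strands, and members and all genes were each counted once, whatever their number of windows. The E2F site TTTCGCGC or TTTGGCGC was present in 2 members (5.0%), Cdk1 and E2f2, and in 1.23% of the 17274 genes (1.06% of all windows). The E2F core, which that site contains, was present in 9 members (22.5%), Ccnb1, Ccnb3, Ccnl1, Ccnt2, Cdk1, E2f2, E2f3, E2f7 and E2f8, and in 5.82% of genes (5.05% of windows). Some E2F genes thus hold the core of the motif that their own products are known to bind. In Ccnb1, Ccnt2 and E2f8 the only core match shares letters with a CCAAT match, so these letters count under both motifs.

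TTTGAA was present in 8 members (20%) and in 18% of genes (15.6% of windows). CCAAT was present in 21 members (52.5%) and in 42.7% of genes (38.5% of windows). CACGTG was present in 7 members (17.5%), Cdk4, Cdk6, Cdk7, Cdk8, Cdk18, Cdk20 and E2f3, and in 9.02% of genes (7.91% of windows). The GC box GGGCGG was present in 33 members (82.5%) and in 49.8% of genes (46.7% of windows). TGACGTCA was present in 1 member (2.5%), Ccnl1, and in 2.58% of genes (2.26% of windows). TGCGCA was present in 4 members (10%) and in 11% of genes (9.74% of windows), and AAGATGGCG in 0 members and in 2.15% of genes (1.84% of windows).

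Other genes of the cell cycle and of transcription were taken from 8 lists of 76 genes in all. Of these, 65 had a gene-end peak in at least 1 library, 41 in all 4 WT libraries and 2, Cdkn1b and Tfdp2, in all 10, where 42.6%, 23.4% and 2.27% of all genes did. Cdkn1b encodes p27, an inhibitor of cyclin E and Cdk2, and Tfdp2 a DNA-binding partner of E2F. In all 4 WT and no Het library 8 were called, where 5.34% of all genes tested were. In all 4 WT and no Homo library 0 were called, where 0.306% were, and in the reverse of either pattern 0. No gene of the lists passed the adjusted Fisher's exact test, which 0 genes passed in any of the 4 comparisons.

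Of 8 CDK inhibitors, 5, 4, 4 and 4 were called in WT 1 to WT 4, 2, 4 and 3 in Het and 2, 1 and 4 in Homo. Cdkn1a, which encodes p21, and Cdkn2a and Cdkn2b of the INK4 locus were called in none. The pocket proteins and E2F partners, 5 genes with Rb1 of the retinoblastoma protein, numbered 4 to 5 in WT, 2 to 4 in Het and 1 to 5 in Homo. The 7 genes of MuvB and DREAM, the complexes that repress or activate late cell cycle genes, numbered 5 to 6, 1 to 4 and 0 to 7. Lin54, the DNA-binding subunit, was called in 4 of 4 WT, 0 of 3 Het and 1 of 3 Homo libraries. The 8 CDK activators and brakes numbered 5 to 6, 2 to 5 and 0 to 6, and Cdc25c, the phosphatase that activates Cdk1, was called in 4 of 4 WT, 0 of 3 Het and 1 of 3 Homo libraries. In Homo 1 and Homo 2 none of these 8 was called.

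Of 15 origin licensing genes, which load and fire the replicative helicase, 14, 14, 9 and 12 were called in WT 1 to WT 4, 7, 8 and 2 in Het and 6, 1 and 14 in Homo. Mcm3, a helicase subunit, and Cdc45, its cofactor, had 4 of 4 WT and 0 of 3 Het libraries, with 1 and 2 of 3 Homo. Dbf4, the regulatory subunit of the Cdc7 kinase, was called in 3 of 4 WT and in all 6 other libraries. Of 14 SCF and APC/C genes, the ubiquitin ligases of the cycle, 8 to 10 were called in WT, 3 to 7 in Het and 3 to 11 in Homo, and Fzr1, an APC/C activator, had 4 of 4, 0 of 3 and 1 of 3. The 10 mitotic kinase and checkpoint genes numbered 4 to 6, 2 to 5 and 0 to 8, and Bub3 had 4 of 4, 0 of 3 and 1 of 3. Of 9 partners of the transcription CDKs, 7 to 8 were called in WT, 2 to 4 in Het and 1 to 8 in Homo. Mepce, which caps the 7SK RNA that holds P-TEFb inactive, had 4 of 4, 0 of 3 and 1 of 3. In each list Homo 3 lay within or above the WT range and Homo 2 below it.

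**Figure D4:**
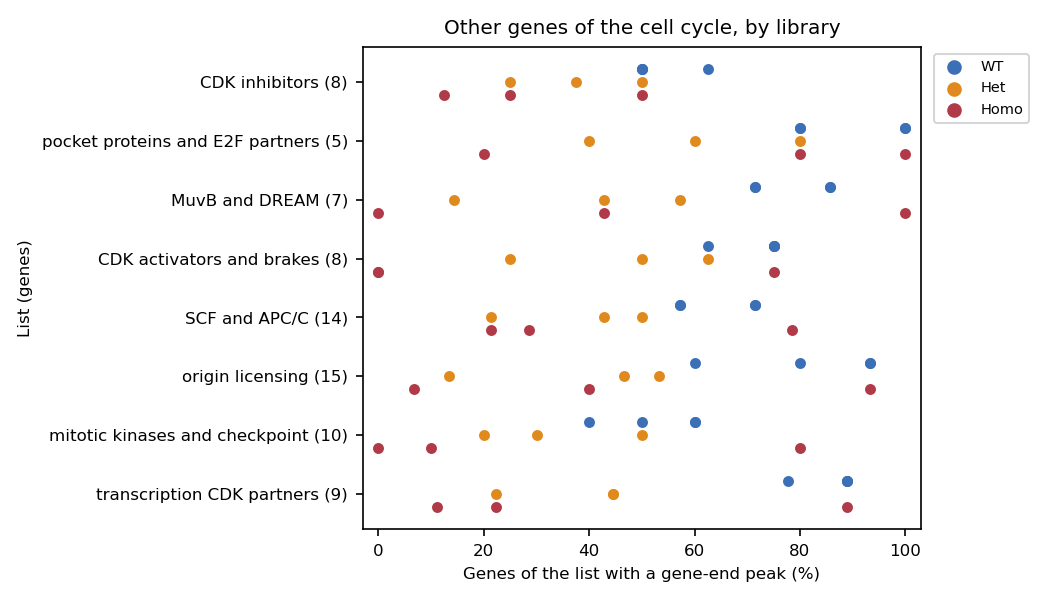
Share of the genes in each of 8 lists (number of genes in parentheses) with a gene-end peak, in percent, 1 point per library and coloured by genotype, with coinciding points on top of each other. For origin licensing the WT points lie at 60% or above, and in each of the 8 lists the Homo points span a wider range than the WT or the Het points.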

How the data were processed

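ATAC-seq was made from frozen liver tumours, and 1 narrowPeak list per library was deposited by the authors. Alignment with Bowtie2 to mm10, peak calling with MACS2 and use of deepTools are named, without versions, in the submitters' processing notes. What settings the caller had, how reads were filtered or shifted and how many there were was not given in the sources used here. The deposited score is a whole number that follows the −log10 p. The deposited fold is a ratio of summit pileup to local background, and the deposited −log10 p and −log10 q come from the same pileup, per the values of the lists. Peaks were called per library, so presence could be compared between replicates.

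Rows that touched were merged into regions, and autosomes and chromosome X were kept. Genes are those of the RefSeq table for GRCm38.p6. A gene was called where at least 1 bp of a region lay within 1000 bp of either end. A whole-number pileup and a background giving the deposited fold and −log10 p to within 0.001 were found for 100% of rows in each list, and the smallest background value found in 30 or more rows was taken as depth (1.74, 1.13, 0.985 and 1.40 in WT 1 to WT 4, 0.696, 0.655 and 0.738 in Het, 0.914, 0.465 and 1.61 in Homo). Equal depth scaled both to 0.465 and kept −log10 p of at least 5. Groups come from the titles.

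Presence was tested by Fisher's exact test, two-sided, with Benjamini-Hochberg adjustment over all genes called in at least 1 compared library (threshold 0.05). The script was tested on simulated data. Counts of members carry no test. Alternatives were a 2500 bp window, listed starts only, the summit in the window, −log10 q of at least 5, equal depth, the 1748 strongest regions, each library left out, and the replicate block. Leaving out Homo 1 and Homo 2 together was added after seeing the data. Named are members called in all of one group and none of another, the cyclins D, E, A2, B1 and B2, Cdk1, 2, 4, 6 and E2f1 to E2f8 whatever their values, members called in all or no library, and members called in all WT and at most 1 Het or 1 Homo library or in a greater share of Het or Homo than WT libraries. Other members are named after their values were seen. The members, lists and roles were chosen with earlier results of these data known. Python 3.11.15, numpy 2.4.6, pandas 2.3.3, scipy 1.17.1 and matplotlib 3.10.9 were used.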

Additional observations from a re-analysis of the deposited data

Results flagged for a closer look

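Among the 4 WT libraries, Cdk13 had a fold of 4.98 in WT 3, the lowest, far below the other 3, which lay between 6.79 and 7.11. E2f5 had a fold of 8.59 in WT 1, the highest, while the other 3 lay between 7.52 and 7.6. Both were picked out by Dixon's test for a single outlying library. It was applied to the folds of 33 gene and group combinations and chance flags about 1 in 20 of them, so 2 is near the number chance gives. Folds carry the depth of each list, and the part of depth in these values was not tested.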

How the results depend on the processing

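Among the 1748 strongest regions of each list, Homo minus WT became -1.5 and Het minus WT -1.17 members, and at equal depth Het minus WT was -7.92. The shares of all genes called in both settings are given above with the member counts. Without Homo 1 and Homo 2 together, Homo minus WT turned to 3.0. Leaving out 1 library gave -24 to -8.5 for Homo minus WT (main value -15) and -20 to -11.5 for Het minus WT (-16). Members called in all of one group and none of the other went for Homo against WT from 0 to 1 at equal depth (E2f7, beside 62 of all genes), 0 to 14 with 1 library left out (14 without Homo 3, beside 2091 of all genes in the same direction, and 1 without WT 2, beside 52) and 2 without Homo 1 and Homo 2 (Ccnq and Cdk18, beside 315). For Het against WT they went from 3 to 5 with −log10 q of at least 5 (626 of all genes), to 0 with equal numbers of regions (35), and to 3 to 8 with 1 library left out (8 without Het 1, beside 1232 of all genes, and 5 without WT 3, beside 826). For Homo against Het they went from 0 to 0 to 1 with 1 library left out, and to 9 without Homo 1 and Homo 2, beside 2077 of all genes. For all 6 against WT they went to 0 to 1 (1 without WT 2, beside 26 of all genes, and 1 without Homo 3, beside 328). The cause of these shifts was not tested, except that fewer libraries make the pattern easier to meet. Genes passing the adjusted Fisher's exact test stayed at 0 in every alternative run. Same-numbered libraries of different groups had correlations of -0.103 to 0.025, and differently numbered ones -0.042 to 0.107. These values show no pairing by number, and shared handling of same-numbered libraries was not tested. With the replicate block the values were -14 and -15 for the differences and 0, 3, 0 and 0 for the counts. The number and depth of regions limit what a missing peak can show, and with these group sizes the smallest unadjusted p was 0.0286 for either genotype against WT, 0.1 for Homo against Het and 0.00476 for all 6 against WT.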

Other observations

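Outside the naming rule, Cdk11b, the gene of a kinase related to the transcription CDKs, was called in 4 of 4 WT, 2 of 3 Het and 2 of 3 Homo libraries, missing from Het 3 and Homo 2. Cdk3, a transcribed pseudogene in the mouse table, was called in 0 of 10 libraries. A region past the far end of Ccnf, at an end of Tedc2, was called in 4 of 4 WT libraries, in Het 2 and in Homo 1 and Homo 3, so it was present in 2 libraries (Het 2 and Homo 1) where the Ccnf promoter peak was not.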
